A study of Mus musculus with 4 samples.

Results

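The transcripts described here are the probes whose signal was at least 8-fold higher at day 4 than at day 0 of adipocyte induction in both of 2 mouse cell lines, C3H10T1/2 and 3T3-L1. They were chosen on the authors' deposited log2 table, with a day 4 minus day 0 difference of at least 3 in each line, and each had to be called well above background by the scanner software on both day 4 arrays. Probes with a RefSeq accession (name prefix CUST_) or named as long intergenic noncoding RNAs were left out by the rule. The rule found 195 probes among 58955 eligible ones, on an array with 60900 probes measured here. Since the day 4 change chose these probes, its size is given as a description with no test.

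C3H10T1/2 cells are mesenchymal progenitors of fibroblast form, and 3T3-L1 is a line of committed preadipocytes. The 4 groups are C3H10T1/2 at day 0, C3H10T1/2 at day 4, 3T3-L1 at day 0 and 3T3-L1 at day 4, with 1 array per group, and no genetic alteration is named for any of them. The labels do not name the inducing agents and do not say whether dishes were pooled. RNA freed of ribosomal RNA was labelled with Cy3 along whole transcripts and hybridised to the Arraystar Mouse LncRNA array, which carries probes for mRNAs and long noncoding RNAs. With 1 array per group there were no replicates, so precision is limited by how few arrays there are, and a difference within a line or within a day has no test. By its title, the study sought the long noncoding and messenger RNAs of adipogenesis.

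During adipogenesis a fibroblast-like precursor stops dividing and acquires the enzymes of lipid uptake, synthesis and storage. The transcription factors C/EBP beta and C/EBP delta act early and induce PPAR gamma and C/EBP alpha, which then keep each other active and switch on the genes of the fat cell, such as those for the fatty acid carrier Fabp4, the lipid droplet coat perilipin and the hormone adiponectin. These genes are silent or nearly so in precursors. The files pair none of the 195 probes with a gene, so which of them read these transcripts is not known here, no marker of either cell line or of the fat cell could be checked, and the probes are given by the array maker's identifiers. All 195 carry identifiers of the ASMM10P series, and each was printed in 1 spot per array.

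Signals are given as processed intensity, which is background-subtracted within an array, with the error that the scanner software assigns to the spot. This error covers the spot and not the spread between cultures. Levels and differences are on the log2 scale after each array was divided by its 75th percentile, so that arrays can be compared. Those percentiles lay between 321 and 388 intensity units, between 59.0% and 63.9% of the 60900 probes were above background, and 3 to 6 of 300 negative control spots per array were called above background. No spot was saturated. Repeated spots of the 15 accession-named probes had a median SD of the log2 change of 0.06 in C3H10T1/2 and 0.08 in 3T3-L1, a technical error only. Most of these probes were brighter at day 0 than the median of the 195 probes, 27.3 in C3H10T1/2 and 53.6 in 3T3-L1. For the dim Ldhal6b probe, with 22.0 and 60.2 at day 0, the SD was 0.31 and 0.40. None of these 15 probes met the 8-fold condition in both lines. By the smaller change the nearest was G6pd2, a glucose-6-phosphate dehydrogenase, with log2 changes of 1.45 and 1.40. Tfrc, the transferrin receptor that takes up iron, had 3.09 in C3H10T1/2 and 0.97 in 3T3-L1. In the authors' deposited table, which the rule used, G6pd2 had 1.38 and 1.33, and Tfrc had 2.88 and 0.79.

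The 195 probes were higher at day 4 by a median of 4.63 on the log2 scale in C3H10T1/2 (from 2.81 to 10.76) and by 4.08 in 3T3-L1 (from 2.85 to 11.45). Among the 34030 eligible probes above background on both day 4 arrays, which serve for comparison throughout, the median change was -0.02 and 0.09. The rule took 0.573% of those 34030 probes. It was met in C3H10T1/2 alone or together with 3T3-L1 by 422 of them (1.24%) and in 3T3-L1 by 325 (0.955%), so that the shared probes made up 46.2% of the first list and 60.0% of the second. Of the 227 other probes in the C3H10T1/2 list, 142 were at least 2-fold higher in 3T3-L1 in the authors' deposited table and 38 had a value below 0 there. Of the 130 others in the 3T3-L1 list, 98 were at least 2-fold higher in C3H10T1/2 and 18 were below 0. In that table all 34030 comparison probes had a median change of 0.08 in 3T3-L1 (upper quartile 0.49) and -0.03 in C3H10T1/2 (upper quartile 0.37). Their shares at these cut-offs were not counted, so these counts are a description. A higher signal at day 4 can come from more cells that hold a transcript or from more of it per cell, which bulk RNA cannot tell apart.

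Scaling the scanner signal instead of using the authors' table left 185 of the 195 at or over 3 in both lines. The 3 probes nearest the threshold from inside were ASMM10P028944, ASMM10P010520 and ASMM10P002552, with a smaller change of 3.01 each in the authors' deposited table. Just outside were ASMM10P026168, with 3.00 after rounding, and ASMM10P053039 and ASMM10P033153, with 2.99 each. In ASMM10P053039 the lines differed widely, since its intensity went in C3H10T1/2 from 45.8 to 28605 and in 3T3-L1 from 5.77 to 47.9. ASMM10P010520, inside, was dim on every array, with intensities of 6.43 and 51.2 in C3H10T1/2, against 5.84 and 68.3 in 3T3-L1 at days 0 and 4. A total of 35 probes had a smaller change between 2.9 and 3.1, so membership near the threshold is a matter of small differences.

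Detection at day 0 split the set. At day 0, 89 of the 195 probes were above background in both lines, 26 in 3T3-L1 only, 6 in C3H10T1/2 only and 74 in neither. As shares these were 45.6%, 13.3%, 3.08% and 37.9%. Among all 34030 comparison probes, 95.1% were above background at day 0 in both lines, 3.36% in 3T3-L1 only, 0.414% in C3H10T1/2 only and 1.13% in neither. A dim day 0 signal favours a large change, so the rule itself raises the share of undetected probes and nothing is read from the contrast with the background. In each line taken alone, 95 of the 195 were detected at day 0 in C3H10T1/2 and 115 in 3T3-L1. All probes showed the same order, with 95.5% of the comparison probes detected at day 0 in C3H10T1/2 and 98.5% in 3T3-L1.

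The 89 probes seen in both lines before induction had the highest median day 4 signals of the classes. Their median intensity went in C3H10T1/2 from 126 to 5128 and in 3T3-L1 from 221 to 4707, with medians of the log2 change of 4.49 and 4.09. The 74 probes detected in neither line at day 0 ended at medians of 266 and 213, with changes of 4.56 and 4.14. Thus the median change was nearly the same in these 2 classes while the median day 4 signal differed by more than 10-fold. Against the lowest signal above background on each day 0 array, the undetected class had median lower bounds of 3.26 and 3.21, which leave the size of its changes above them unknown. These classes were formed on the day 0 signal, which is part of the change, and the order of intensities between probes also reflects how well each probe binds.

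Because a signal not above background has no firm size, the change of each probe was also bounded, with a dim day 0 signal replaced by the array's lowest detected one where that was higher (24.5 in C3H10T1/2 and 24.9 in 3T3-L1 at day 0). On this scaled scanner signal 185 of the 195 were at least 8-fold higher in both lines before any bound. By these bounds 145 of the 195 were at least 8-fold higher in both lines, 168 at least 4-fold and 64 at least 16-fold. Over all 195 the median bounded change was 4.16 in C3H10T1/2 and 3.79 in 3T3-L1. Of the 89 detected throughout, to which no bound applied, 87 were at least 8-fold in both lines. Of the 74 undetected at day 0, 34 were, against 70 before the bound. With the day 4 signal lowered and the day 0 signal raised by 1 spot error each, 121 of the 195 were at or over 8-fold in both lines. The spot error was at most 16.6% of the signal on either day 4 array, against a median of 78.8% in C3H10T1/2 and 58.9% in 3T3-L1 for the spots not above background at day 0.

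Within the class detected on all 4 arrays, ASMM10P054528 had the largest change by the smaller of the lines. Its intensity was 51.6 ± 8.3 and 56727 ± 5673 in C3H10T1/2 at days 0 and 4, and 139 ± 15.0 and 36548 ± 3655 in 3T3-L1 (errors of the spot). The day 4 signal was thus 970 times that of day 0 in C3H10T1/2 and 287 times in 3T3-L1, and both day 4 values lay far above both day 0 values. ASMM10P018642 was higher at day 0 in C3H10T1/2, with 149 ± 16.2 there and 42.8 ± 7.12 in 3T3-L1. At day 4 its signals were 47997 ± 4800 and 16266 ± 1627, so that the order of the lines was kept and the folds were 285 and 414.

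The next 4 probes of this class were brighter at day 4 in 3T3-L1. ASMM10P011800 went in C3H10T1/2 from 71.4 to 6245 and in 3T3-L1 from 94.1 to 18331 (77.2-fold and 212-fold). ASMM10P054312 went from 117 to 9909 and from 126 to 19108 (74.6-fold and 165-fold). Both started from nearly equal signals in the lines. ASMM10P054314 went from 84.4 to 5539 and from 63.8 to 8289 (57.9-fold and 142-fold). In ASMM10P010907 the lines already differed at day 0, with 58.8 ± 8.13 and 249 ± 25.5, and at day 4 they stood at 3817 ± 382 and 20614 ± 2061. Its folds were closer together, 57.3 and 90.2, than its levels.

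Among the probes detected at day 0 in 1 line only, ASMM10P012606 reached the highest fold of all. It had 154 ± 16.5 at day 0 and 56861 ± 5686 at day 4 in C3H10T1/2, and 20.7 ± 5.67 (not well above background) and 53074 ± 5307 in 3T3-L1. The folds were 326 in C3H10T1/2 and at least 2325 in 3T3-L1, and the lines ended at nearly the same level (day 4 difference, 3T3-L1 minus C3H10T1/2, -0.07). ASMM10P037878 stayed lower in 3T3-L1, with 61.7 and 5726 in C3H10T1/2 against 16.5 and 815 in 3T3-L1 (81.9-fold and at least 35.7-fold). ASMM10P021841 had 142 and 6033 in C3H10T1/2, against 22.8 and 2314 in 3T3-L1 (37.5-fold and at least 101-fold).

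The other probes named from this class were closer to the detection limit at day 0. ASMM10P009347 had 9.89 and 1298 in C3H10T1/2, against 35.7 and 1022 in 3T3-L1, at least 46.8-fold and 31.2-fold. ASMM10P003273 had 19.4 and 655, and 31.0 and 718 (at least 23.6-fold and 25.2-fold). ASMM10P040603, with 27.0 and 815, and 24.6 and 888, was called detected at day 0 in C3H10T1/2 only. Its day 0 spot errors were 5.74 and 5.92. After scaling, its day 0 line difference was -0.40 on the log2 scale, which is less than 2-fold. A call of detection in 1 line only is therefore not in itself a 2-fold difference between the lines.

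The 6 leading probes undetected in both lines at day 0 were all at least 67.1-fold higher by their bounds. ASMM10P009499 went in C3H10T1/2 from 13.0 ± 6.04 to 15258 ± 1526 and in 3T3-L1 from 10.5 ± 5.61 to 11097 ± 1110. Against the lowest signal above background it was at least 550-fold and at least 486-fold higher. ASMM10P031065 reached 7861 ± 786 and 5988 ± 599 from 6.58 and 11.1 (at least 284-fold and at least 262-fold). For these probes the lines differed little at day 4.

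ASMM10P036524 reached 7293 in C3H10T1/2 and 2916 in 3T3-L1 (at least 263-fold and at least 128-fold), and ASMM10P008500 reached 5537 and 3145 (at least 200-fold and at least 138-fold). ASMM10P032995 was brighter in 3T3-L1, with 5140 and 8382 (at least 185-fold and at least 357-fold). ASMM10P031066 had 7304 ± 730 in C3H10T1/2 and 1532 ± 153 in 3T3-L1, at least 263-fold and at least 67.1-fold. Among these 6 probes it had the largest line difference at day 4, -2.22.

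At day 4 the set occupied the upper part of the signal range. Its median intensity was 1479 in C3H10T1/2 (from 48.8 to 109296) and 1182 in 3T3-L1 (from 47.7 to 118167), against 275 and 271 for the comparison probes. The median probe stood at the 77.8th percentile of the comparison probes in C3H10T1/2 and the 75.8th in 3T3-L1. In C3H10T1/2, 105 of the 195 (53.8%) lay above the 75th percentile and 29 (14.9%) above the 95th. In 3T3-L1 these were 100 (51.3%) and 31 (15.9%). The day 4 level is part of the change that chose the probes, so a shift upward is built into the rule. Day 4 levels in the lines had Pearson's r of 0.87 over the 195 probes and 0.95 over the 34030 comparison probes, a description across probes measured on the same 2 arrays.

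The 5 probes with the highest mean day 4 level were all detected at day 0 in both lines. ASMM10P039995 went in C3H10T1/2 from 1461 ± 146 to 109296 ± 10930 and in 3T3-L1 from 10035 ± 1003 to 96622 ± 9662. The lines were far apart at day 0 and level at day 4, so the folds were 66.0 and 10.5. ASMM10P019057 showed the same form, with 227 and 72442 in C3H10T1/2, against 3719 and 65495 in 3T3-L1 (282-fold and 19.2-fold).

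ASMM10P006480 and ASMM10P040407 were already bright at day 0 in both lines. The first went from 8056 to 85325 and from 10027 to 118167 (9.35-fold and 12.8-fold). The second went from 9689 to 102453 and from 10699 to 97371 (9.34-fold and 9.92-fold). ASMM10P036546 went from 3159 to 95777 and from 3630 to 66204 (26.8-fold and 19.9-fold). In these 3 probes the lines differed by less than 2-fold on both days.

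The lines were compared at day 4, a difference the rule did not use itself, although both day 4 levels are part of the changes it used. Of the 195 probes, 45 (23.1%) were at least 2-fold brighter in C3H10T1/2 and 23 (11.8%) in 3T3-L1. In the comparison probes 6.95% were at least 2-fold brighter in C3H10T1/2 and 5.61% in 3T3-L1. The remaining 127 were within 2-fold. The median line difference (3T3-L1 minus C3H10T1/2) was -0.17, with an interquartile range from -0.93 to 0.45, against 0.03 and a range from -0.34 to 0.36 in the comparison probes. In these values the set was spread more widely between the lines than the comparison probes, with more of it on the C3H10T1/2 side at 2-fold. At 8-fold 5 were brighter in 3T3-L1 and 4 in C3H10T1/2 (0.461% and 0.552% of the comparison probes). At 16-fold these were 3 and 1 (0.191% and 0.197%). Probes chosen for large changes can be expected to spread more, so nothing is read from the contrast with the comparison probes. With 1 array per line and day it has no test.

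The counts differed between the day 0 classes. Of the 89 probes detected on all arrays, 13 were at least 2-fold brighter in C3H10T1/2 at day 4 and 5 in 3T3-L1, and the largest difference in either direction was under 8-fold. Of all eligible probes detected on all arrays, 6.84% and 5.3% were at least 2-fold brighter in the same directions. Of the 74 undetected at day 0, 22 (29.7%) were at least 2-fold brighter in C3H10T1/2 and 6 (8.11%) in 3T3-L1, against 14.3% and 6.23% of the 385 comparison probes of that class. Of the 32 detected at day 0 in 1 line, the counts were 10 (31.2%) and 12 (37.5%), against 7.54% and 13.2% of 1286. The lines also differ in how many probes were detected at day 0, 59.0% in C3H10T1/2 and 63.9% in 3T3-L1 over all probes, and the part of this in the class counts was not tested.

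On the 3T3-L1 side, ASMM10P045654 had the largest difference. Its intensity was 6.26 ± 6.28 (not well above background) and 122 ± 13.9 in C3H10T1/2 at days 0 and 4, and 332 ± 33.6 and 20586 ± 2059 in 3T3-L1, so that at day 4 it was 172-fold brighter in 3T3-L1. The bound for its day 4 change in C3H10T1/2 was at least 4.41-fold. ASMM10P011750 had 12.0 and 224 in C3H10T1/2, against 77.6 and 4118 in 3T3-L1, an 18.8-fold difference at day 4. ASMM10P045096 had 5.86 and 83.8, and 14.8 and 1504 (18.3-fold).

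ASMM10P046427 had 7.42 and 89.3 in C3H10T1/2, against 127 and 1091 in 3T3-L1 (12.5-fold), and ASMM10P025383 had 5.96 and 48.8, and 34.6 and 421 (8.82-fold). For all 5 of these probes the C3H10T1/2 day 0 signal was not well above background. Their bounded folds in C3H10T1/2 ran from 1.76 for ASMM10P025383 to 8.09 for ASMM10P011750, so for 4 of the 5 a change of 8-fold there rests on a day 0 signal below the detection limit.

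On the C3H10T1/2 side, ASMM10P039224 went in C3H10T1/2 from 6.29 ± 6.33 to 12356 ± 1236 and in 3T3-L1 from 16.7 ± 5.86 to 242 ± 24.95. It was 49.9-fold brighter in C3H10T1/2 at day 4, with changes of at least 446-fold and at least 10.6-fold. ASMM10P038396 reached 3094 and 251 (12.1-fold), ASMM10P014225 554 and 49.0 (11.1-fold), ASMM10P046713 1674 and 188 (8.69-fold) and ASMM10P051585 2688 and 331 (7.94-fold) in C3H10T1/2 and 3T3-L1 at day 4. All 5 were undetected at day 0 in both lines. By its bounds ASMM10P014225 was at least 19.98-fold higher in C3H10T1/2 and at least 2.15-fold in 3T3-L1.

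Before induction the difference between the lines ran slightly the other way. Of the 121 probes detected at day 0 in at least 1 line, 3T3-L1 was the brighter line by 2-fold or more for 22 and C3H10T1/2 for 13, by their bounds. In the comparison probes 6.45% and 5.2% of 33645 were. Among the 89 detected on all arrays the day 0 counts were 11 for 3T3-L1 and 9 for C3H10T1/2, against 5.91% and 5.17% of 32359 probes.

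Line differences at day 0 and day 4 were weakly related within the set. Over the 89 probes they had Pearson's r of 0.22, against 0.47 over the 32359 eligible probes detected on all arrays, both as descriptions across probes of the same 4 arrays. The sign was the same on both days in 46 of the 89 (51.7%, against 59.0%). Of the 20 probes at least 2-fold apart at day 0 and the 18 at day 4, 6 were so on both days, all in the same direction. Among the 32359 probes, 3583 were at least 2-fold apart at day 0 and 3928 at day 4. Of these, 1289 were so on both days in the same direction and 136 in opposite directions. The median size of the difference was 0.41 at day 0 and 0.56 at day 4 in the 89 probes, and 0.34 and 0.35 in all. The day 4 difference is that of day 0 plus the difference between the lines' changes, and the rule chose probes on these changes. Nothing is therefore read from the contrasts with all eligible probes.

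At day 0, 8 of the 89 probes were at least 4-fold apart between the lines, and 6 of these 8 were within 2-fold at day 4. For all eligible probes detected on all arrays it was 253 of 848 (29.8%). The rule asks for a large change in both lines, and nothing is read from this contrast. These 8 were singled out after their values were seen. ASMM10P019727 had 48.2 and 738 at day 0 and 17510 and 16249 at day 4 in C3H10T1/2 and 3T3-L1. ASMM10P049636 ran the other way at day 0, with 671 and 58.8, and reached 15772 and 18563. The exceptions were ASMM10P018642, given above, and ASMM10P026180, which had 1419 and 342 at day 0 and 20905 and 7150 at day 4.

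The line difference over both days is not the contrast of the rule, and limma was fitted to it with the days standing in for replicates. Limma's moderated test with terms for line and day, fitted to 38333 probes, called 13 of the 195 at adjusted p under 0.05, 6 with the higher signal in 3T3-L1 and 7 in C3H10T1/2. Over all probes tested it called 1.71% and 1.3%. Its error is the difference between the lines' changes, and the same changes chose the members, so a member's adjusted p is given as a description. This error does not measure the spread between cultures, and the test favours probes whose line difference was alike on both days. The smallest adjusted p was that of ASMM10P046427, with a line difference of 3.73 ± 0.29 (SE, limma adjusted p = 0.00638, range over the alternatives 1.2e-12 to 0.722), followed by ASMM10P045654 with 6.44 ± 0.52 (limma adjusted p = 0.00716, range 8.5e-38 to 0.657). Both were higher in 3T3-L1 on both days.

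Of the 13 called probes, 2 were detected on all 4 arrays. ASMM10P010907 was higher in 3T3-L1 by 2.14 ± 0.32 (limma adjusted p = 0.0378, range 0.000333 to 0.973), with the signals given above. ASMM10P011360 was higher in C3H10T1/2, by 2.22 ± 0.36 on the log2 scale, with 1585 and 51200 there against 584 and 7532 in 3T3-L1 at days 0 and 4 (limma adjusted p = 0.0497, range 0.000155 to 0.957). The other 11 include day 0 signals below the detection limit, whose differences are not firm. With such signals raised to the lowest signal above background, limma called 4 of the 195 as higher in each line. Over all probes tested that fit called 1.47% in 3T3-L1 and 1.20% in C3H10T1/2. Of the 8 members it called, 6 were among the 13. With normexp background correction, and separately without the term for day, limma called 0 of the 195. At an unadjusted p under 0.05 these fits had 31 and 0 members, against 50 in the fit described here. Without the term for day the error includes the day 4 change, which the rule made large in every member, so 0 calls there were built in. The upper end of each range of adjusted p given here is from that fit. The lower end is from the fit without a filter on background.

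Some members share neighbouring identifiers. Of the 382 eligible probes whose number comes directly before or after that of a member, 25 (6.54%) were themselves members, against 0.331% of all eligible probes. They formed 13 pairs of consecutive numbers, of which ASMM10P040405, ASMM10P040406 and ASMM10P040407 form a run of 3. The files do not say what the numbering follows, and whether such pairs read 1 gene is not known here. The spots of a pair lay at least 46 rows apart on the array, so they are not neighbours there.

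In 11 of the 13 pairs both probes were brighter at day 4 in the same line. Of the 21191 pairs of consecutive comparison probes 54.2% were, and 115 of the 195 members were brighter in C3H10T1/2, so this count is a description over few pairs. The exceptions were ASMM10P025822 and ASMM10P025823, with day 4 line differences of 0.05 and -1.15, and ASMM10P049636 and ASMM10P049637, with 0.27 and -0.68. ASMM10P018641 was lower in 3T3-L1, as was ASMM10P018642, with 3064 and 783 at day 4 in C3H10T1/2 and 3T3-L1 (day 4 line differences -1.94 and -1.53). ASMM10P037877, with 413 and 93.3, and ASMM10P037878 gave -2.11 and -2.78. ASMM10P045653, with 27422 and 74829, and ASMM10P045654 gave 1.48 and 7.43, the same direction at very different size. At day 0 ASMM10P045653 had 16.8 ± 5.5 in C3H10T1/2 and 4752 ± 475 in 3T3-L1.

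The 357 neighbouring probes that were not members did not meet the rule, which was applied to the same changes, so their values are a description. Of these, 229 were above background on both day 4 arrays, and their median change was 0.09 in C3H10T1/2 and 0.16 in 3T3-L1, against -0.02 and 0.08 for all 33835 non-members. Of the 229, 20 (8.73%) were at least 2-fold higher at day 4 in both lines, against 4.36% of all non-members.

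The 195 spots were spread over the whole array. Its 4 quadrants held 49, 49, 50 and 47 of them, and between 24.8% and 25.3% of the comparison probes.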

How the data were processed

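The deposited scanner files hold an intensity per spot from Agilent Feature Extraction 11.0.1.1, background-subtracted and detrended within the array, per the file headers, with flags for detection. The deposited log2 table is the authors' processed data. Its method is not given in the sources used here, its column medians were 5.93 on all 4 arrays, and it followed the log2 scanner intensity of the same array (Pearson's r from 0.9994 to 1.000) uncentred and in the same direction. It chose the members, and scanner values are printed.

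Control spots, negative controls and 15 single-spot probes with a non-uniformity flag on any array were removed. No gene of the marker and pathway lists could be matched to an ASMM10P probe, so none was scored. Levels are log2 intensity minus the array's 75th percentile. Limma 3.58.1 in R 4.3.3 (lmFit, eBayes, Benjamini-Hochberg) took the probes detected on 2 or more arrays, with 1 residual degree of freedom per probe. In simulated data of 38333 probes, 50 were given a line difference of each size and the rest none. Limma recovered 0% of line differences of 1 and 0% of those of 2 on the log2 scale. It recovered 10% of those of 3 and 74% of those of 4, with 4 false calls. The real fit called 654 and 497 probes, and more calls ease the Benjamini-Hochberg cut-off, so recovery there can differ. Called members such as ASMM10P010907 (2.14) and ASMM10P011360 (-2.22) had differences between 2 and 3 in size, where recovery in the simulation was low. Of the 15 accession-named probes all matched RefSeq symbols of GRCm38.p6.

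Named probes are the 6 with the highest smaller change in each day 0 class, the 5 with the highest mean day 4 level, the 5 with the largest line difference each way, and 3 on each side of the threshold. Probes of the line test, the identifier pairs and the widest day 0 differences were named after their values were seen. The members and lists were chosen with earlier results of these data known. All arrays came from 1 slide and 1 scan, so neither could be fitted.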

Additional observations from a re-analysis of the deposited data

How the results depend on the processing

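With 1 array per group no array could be left out, and no analysis paired by replicate was possible because no group has replicates. The limma test of the lines does compare them within each day, through its term for day. Of 84 values of the counts, medians and calls under the alternatives, 56 stayed within 1.5 times, within the technical SD, or within 5 percentile points for ranks of levels. A reversal of sign was scored only for the median changes in the lines, whose sign the rule had set. That none was found is therefore no check of the line differences or of the counts. The number of probes meeting the rule was 195, against 465 at 4-fold, 88 at 16-fold, 89 if detected on all 4 arrays, 86 with normexp and quantile normalization, and 121 with 1 spot error against the change, the last chosen after seeing the data. These 86 and 121 were all among the 195. The median change in C3H10T1/2 was 4.56 with quantile normalization, with the 75th percentile of detected probes and with the authors' values. With normexp the medians were 3.19 and 3.07 in C3H10T1/2 and 3T3-L1, 86 probes were at or over 3 in both, and 14 were 2-fold brighter in 3T3-L1 at day 0. Normexp adds an offset of 50, which shrinks differences of dim signals by construction. With other line thresholds, at 1.5-fold 44 probes were brighter in 3T3-L1 and 66 in C3H10T1/2 at day 4. Of the comparison probes 14.4% and 15.0% were. At 4-fold 11 and 18 were brighter in 3T3-L1 and C3H10T1/2 at day 4 (1.25% and 1.67% of the comparison probes). At day 0 these were 10 and 6 of 121 (1.87% and 1.12% of 33645 comparison probes). By the positive-and-significant flag, a weaker criterion, 147 were detected at day 0 in both lines and 23 in neither. Limma called 1 and 4 members (3T3-L1 and C3H10T1/2) with detection on all arrays, where 89 were tested (1.13% and 0.926% of all probes tested). It called 17 and 20 without a filter (2.87% and 2.77% of all probes tested), with 58 at an unadjusted p under 0.05. With normexp it called 0 and 0 (0.412% and 0.292% of all), as it did without the day term (0.347% and 0.263%). With dim levels raised it called 4 in C3H10T1/2 (1.20% of all). Without the day term the error includes the day 4 change that the rule made large, so the lack of calls there was built in. The cause of the other limma changes was not tested. Under the 4 other normalizations the share of 2-fold calls at day 4 that were higher in 3T3-L1 was 35.7% to 38.1%, against 33.8%.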
